A study of Mus musculus with 4 samples.

Results

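The kallikreins and their desquamation partners are 10 genes, Klk5, Klk6, Klk7, Klk8, Klk10, Klk11, Klk13, Klk14, Cdsn and Spink5. They were chosen by name out of the 32479 genes of the data set, and all 10 were measured. Their transcripts were followed in dissociated epidermal cells of 4 female C57BL/6N mice at postnatal day 19, with a count table for each mouse. Cells were marked with a sample-tag multiplexing kit, and the study's own scripts assigned them to mice by tag. The 2 control mice carried the floxed ceramide synthase 4 gene without Cre (CerS4fl/flK14Cre-). The 2 CerS4epi-/- mice carried the same floxed alleles with Cre driven by the keratin 14 promoter (CerS4fl/flK14Cre+), which acts in basal keratinocytes and in the epidermal and follicular cells that descend from them, but not in immune cells.

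Shedding of the outermost corneocytes depends on the cleavage of corneodesmosomes, the modified desmosomes that hold the stratum corneum together. Kallikreins are secreted serine proteases that carry out this cleavage in an activation cascade. Corneodesmosin (encoded by Cdsn) is one of the glue proteins they cut, and LEKTI (encoded by Spink5) is the inhibitor that restrains them in the granular layer. Cells lining the infundibulum, the uppermost part of the hair follicle, cornify as well and express many of the same genes. The question put to the data was where each of these genes was expressed in the interfollicular epidermis (IFE), the upper hair follicle (uHF) and the bulge, and in which of these places its level differed between genotypes.

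The 8 kallikrein genes lie in a row, with Klk12 and Klk9 among them, on the plus strand of chromosome 7, over 161 kb in GRCm39 (43339842 to 43500605), in the order Klk14, Klk13, Klk11, Klk10, Klk8, Klk7, Klk6 and Klk5. Cdsn lies on chromosome 17 (35863025 to 35868077, plus strand). An antisense gene, 2310002F09Rik, lies opposite 5 of them (Klk14, Klk13, Klk11, Klk10 and Klk8) and had 2689 counts in the kept cells. The alignment command given by the study names no strand option, and by default STAR counts reads on the sense strand of a gene. How well this kept reads of those 5 genes from those of the antisense gene was not tested. Klk7 (43460718 to 43465809) and Klk6 (43473869 to 43481516) are direct neighbours in this row. Their promoter windows are shown because this pair rose together in most follicular clusters. Each holds 250 bases before and 50 bases after an annotated start, taken from RefSeq on GRCm38.p6, where coordinates differ from those of GRCm39, and is written in lower case, 5' to 3'. Both Klk6 starts of that annotation are given.

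Klk6, upstream start, chr7:43824294-43824593, plus strand: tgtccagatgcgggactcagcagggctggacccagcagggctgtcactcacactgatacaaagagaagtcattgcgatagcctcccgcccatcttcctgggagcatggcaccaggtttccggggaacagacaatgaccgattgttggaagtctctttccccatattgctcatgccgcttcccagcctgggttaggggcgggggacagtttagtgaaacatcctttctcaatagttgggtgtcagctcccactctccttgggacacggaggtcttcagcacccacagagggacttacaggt
Klk6, downstream start, chr7:43825200-43825499, plus strand: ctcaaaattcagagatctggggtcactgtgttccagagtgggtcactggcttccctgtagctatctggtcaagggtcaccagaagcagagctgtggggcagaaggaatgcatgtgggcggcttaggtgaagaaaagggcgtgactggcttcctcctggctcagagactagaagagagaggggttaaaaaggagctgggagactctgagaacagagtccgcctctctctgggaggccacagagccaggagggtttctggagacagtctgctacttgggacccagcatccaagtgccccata
Klk7, chr7:43811044-43811343, plus strand: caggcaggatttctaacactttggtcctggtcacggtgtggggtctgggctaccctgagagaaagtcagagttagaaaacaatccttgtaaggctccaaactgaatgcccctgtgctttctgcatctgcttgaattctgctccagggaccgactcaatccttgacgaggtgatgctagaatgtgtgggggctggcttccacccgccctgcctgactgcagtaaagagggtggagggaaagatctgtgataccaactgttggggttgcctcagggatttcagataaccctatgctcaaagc

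Of the 12 promoter windows found for 9 members (Spink5 being the member without an entry), 0 held TGANTCA, the AP-1 motif, and 0 held TATAAA, both strands being searched. Among all 32851 promoter windows of the table, 7.81% held TGANTCA and 13.6% held TATAAA. These letters were looked for within 300 bases only.

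The 4 count tables held 39231945 to 53106317 counts, and 7567 to 9086 cells per mouse, 34150 in all, passed a minimum of 1200 counts and a maximum of 20% mitochondrial counts. Median counts per cell were 3266 to 3884. The control mice had 0 cell barcodes in common where 87.1 were to be expected by chance, and the CerS4epi-/- mice 0 where 77.1 were. Each pair of mice of unlike genotype had 64 to 102 in common, so capture and genotype cannot be told apart. Cers4 itself was detected mainly in sebaceous gland-like cells, at 2832 and 2465 CPM (counts of a gene scaled to the same total in every sum) in the control mice and 293 and 430.5 CPM in the CerS4epi-/- mice. It was at most 1.16 CPM in any IFE class of any mouse. The genes of interest and a further list of desquamation genes were left out when cells were clustered, so that no class was defined by them.

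Cells were sorted into IFE basal-like, IFE differentiated-like, IFE keratinized-like, uHF-like and bulge-like classes by marker genes. Levels are given in CPM, the counts of a gene relative to those of all genes, after adding up the cells that a mouse had in the class. The bulge-like class needs a caution. It comprised a cluster led by Krt6a, Timp3 and Krt75 (named here the Krt75 cluster) and a cluster led by Krt6a, Cst6, Krt17, Lhx2 and Sox9 (the Krt6a/Lhx2 cluster). The latter made up 59.4% and 53.9% of the class in the control mice and 91.3% and 91.2% in the CerS4epi-/- mice. It had only 11, 12, 24 and 26 counts of Cd34, the defining surface marker of bulge stem cells, in the 4 mice. Results for this class are therefore also given by cluster.

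In control mice Klk5, Klk7, Klk8, Cdsn and Spink5 followed the upward path of IFE keratinocytes, being lowest in basal-like and highest in keratinized-like cells of the IFE. Klk7, the chymotrypsin-like protease of the stratum corneum, was measured at 37.9 and 34.4 CPM in basal-like cells, 290.4 and 259 CPM in differentiated-like cells and 6197 and 5830 CPM in keratinized-like cells. The keratinized-like cells held 83.8% of all its counts in control mice. Klk5, the trypsin-like protease that can activate Klk7, rose along the same path from 12.4 and 9.02 CPM to 333 and 346 CPM and then 1052 and 1132 CPM. Cdsn went from 33.2 and 34.8 CPM over 429 and 465 CPM to 6009 and 6517 CPM. For these 3 genes, as the plot of levels by class and mouse shows, no 2 IFE layers had overlapping ranges in control mice.

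Spink5 had the same order within the IFE, with 57.4 and 47.0 CPM, 862.5 and 896 CPM, and 4818 and 5012 CPM in the basal-like, differentiated-like and keratinized-like cells of control mice. Its highest level in control mice was nevertheless in bulge-like cells, at 5892 and 5105 CPM, above both keratinized-like values. Klk8, a trypsin-like kallikrein also called neuropsin, reached 286 and 297 CPM in keratinized-like cells against 13.7 and 9.31 CPM in basal-like cells. Klk11, another trypsin-like member, had the flattest course, since differentiated-like cells (283.5 and 288 CPM) lay slightly above keratinized-like cells (275 and 270.2 CPM) and basal-like cells still had 152 and 147 CPM.

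The remaining 4 kallikreins were low in the IFE layers. Klk10 was at 7.88 and 3.77 CPM in keratinized-like cells of control mice, against 901 and 562 CPM in uHF-like cells and 2416 and 3016 CPM in bulge-like cells. Klk6, a trypsin-like protease best known from the nervous system, did not exceed 26.1 CPM in any of the 5 classes of a control mouse. Klk13 did not exceed 11.1 CPM, and Klk14, which is thought to act with Klk5 in the stratum corneum, was below 1 CPM outside the bulge-like class, where it was at 157 and 144.5 CPM.

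**Figure D1:**
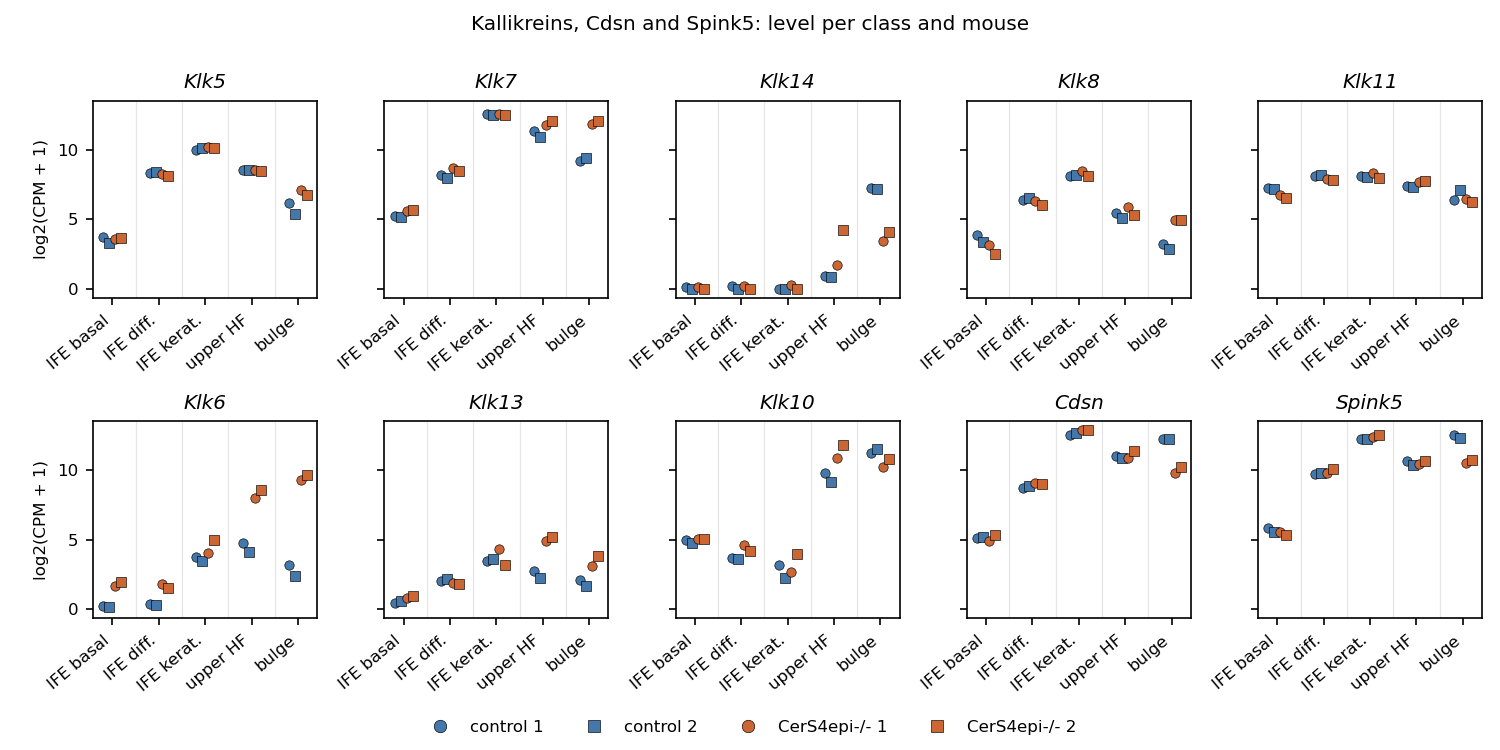
Level of each gene, as log2 of CPM plus 1, in the 5 keratinocyte classes (horizontal axis) with 1 point per mouse (control and CerS4epi-/- in different colours, 2 mice each). Klk7, Klk5, Cdsn and Spink5 climb from basal-like to keratinized-like cells in all 4 mice, and the points of the genotypes lie farthest apart for Klk6 in uHF-like and bulge-like cells.

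Between genotypes, Cdsn, Spink5 and Klk6 differed in keratinized-like cells. By the quasi-likelihood test of edgeR, with p-values adjusted over all genes after Benjamini and Hochberg, 3 of the 9 members tested there were higher in CerS4epi-/- mice and 0 lower, where 10.4% of all genes tested were higher and 7.05% lower. Cdsn rose from 6009 and 6517 CPM to 7616 and 7654 CPM (log2 fold change 0.40, SE 0.07, adjusted p = 0.00533). Spink5 rose from 4818 and 5012 CPM to 5450 and 5956 CPM (log2 fold change 0.33, SE 0.07, adjusted p = 0.0105). The Spink5 call was lost in 4 of 22 other settings. Both CerS4epi-/- mice were above both control mice for each of these genes.

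Klk6 was called higher as well, yet at levels that remained small, 12.7 and 10.01 CPM in the control and 15.4 and 29.9 CPM in the CerS4epi-/- mice (log2 fold change 1.08, SE 0.27, adjusted p = 0.0227). The change ranged from 0.52 to 2.22 over the other settings. In the cluster led by Lce1m, Klk6 had 44 and 33 counts in the control, 26 in CerS4epi-/- mouse 1 and 150 in CerS4epi-/- mouse 2, the last from 14 cells. Without CerS4epi-/- mouse 2 the fold change of the class was 0.59 (adjusted p = 0.0463). Klk7, with 6349 and 5854 CPM in CerS4epi-/- mice, overlapped the control range (log2 fold change 0.14, SE 0.07, adjusted p = 0.245). Klk5 had 1226 and 1128 CPM, again with overlapping ranges (log2 fold change 0.22, SE 0.08, adjusted p = 0.0869). The count of calls in this class depended on which mice were kept. The share of all genes called was not worked out for those fits. Split into its clusters, the one led by Lor and F3 had Cdsn (0.41) and Spink5 (0.42) past the threshold, 2 of 9 members where 6.4% of genes were higher. The one led by Lce1m had 0 of 9 by edgeR and by DESeq2, with 4 at an unadjusted p under 0.05 and 4.95% of all genes called in either direction.

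Lower in the IFE, small shifts of both signs were seen. Among differentiated-like cells, 3 of 9 members tested were higher and 1 lower, against 5.34% and 4.45% of all genes. Klk7 rose from 290.4 and 259 CPM to 417 and 363.5 CPM (log2 fold change 0.50, SE 0.09, adjusted p = 0.0111). Klk10 rose from 11.5 and 11.5 CPM to 23.0 and 17.0 CPM (0.81, SE 0.15, adjusted p = 0.0123). Klk11 fell from 283.5 and 288 CPM to 243 and 228 CPM (-0.28, SE 0.07, adjusted p = 0.0364). Ranges did not overlap for any of the 3. The other call was Klk6, which had 4 and 4 counts in the control and 39 and 21 counts in the CerS4epi-/- mice (3.15, SE 0.42, adjusted p = 0.00266). In CerS4epi-/- mice 1.36% and 0.908% of these cells had a Klk6 count, below the 2.16% that 0 of 139 T cell-like cells of CerS4epi-/- mouse 1 allows. Klk10 and Klk11 each lost their call in 10 of 22 other settings. Klk11 lost it, among others, without control mouse 1, control mouse 2 or CerS4epi-/- mouse 2. Klk7 lost it in 4 of the 22, among them that without control mouse 2. Within the differentiated-like cluster led by Krt77 and Skint5, Klk7 (0.83), Cdsn (0.57) and Spink5 (0.49) rose, each under every alternative run for that cluster. In all, 4 of 9 members were called higher there beside 3.8% of all genes, the other being Klk6 (2.25), which was lost on leaving out any 1 mouse.

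Basal-like cells had 2 of 8 members tested higher and 1 lower, against 4.25% and 3.12% of all genes. Klk11 fell from 152 and 147 CPM to 108 and 94.6 CPM (log2 fold change -0.51, SE 0.09, adjusted p = 0.0112). The make-up of this class differed between genotypes as well. A cluster led by Aldh3a1, Fst and Sostdc1 made up 20.2% and 16.3% of it in control and 36.5% and 40.2% in CerS4epi-/- mice. Klk11 was low in that cluster in every mouse, at 36.9 and 50.6 CPM in control and 21.5 and 20.8 CPM in CerS4epi-/- mice. There it was called lower as well (-0.96, SE 0.21, adjusted p = 0.0101), a call lost without control mouse 2 (-0.73) and with DESeq2 (-0.97). The part of this make-up in the fall was not tested. Inside the largest basal-like cluster, led by Krt5 and Krt14, Klk11 was at 177 and 167 CPM in control and 138 and 135 CPM in CerS4epi-/- mice (-0.29, SE 0.09, adjusted p = 0.105).

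The calls upwards in basal-like cells were Klk6 and Klk7 (log2 fold change 0.49, SE 0.10, adjusted p = 0.0172). Klk7 lost its call in 4 of 22 other settings, among them that without control mouse 2. For both genes the shares of cells with a count are set beside those of T cell-like cells. Klk6 had 2 and 1 counts in the control and 26 and 24 counts in the CerS4epi-/- mice, a ratio of 16.7 (95% interval 5.39 to 83.6, counting error only). A count was found in 0.657% and 0.587% of basal-like cells of CerS4epi-/- mice, against 0.676% of T cell-like cells in CerS4epi-/- mouse 2 and 0 of 139 in CerS4epi-/- mouse 1, which allows a share of up to 2.16%. Klk7 was found in 8.66%, 8.03%, 11.7% and 11.4% of basal-like cells, in the order control 1, control 2, CerS4epi-/- 1 and CerS4epi-/- 2, and in 12.1%, 10.3%, 8.63% and 13.5% of T cell-like cells. T cells should lack both genes, but are few here, and whether free RNA or doublets gave these counts was not tested. Median depths were 2663 to 3190 counts in basal-like and 1549 to 1903 counts in T cell-like cells.

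Upper hair follicle-like cells, the infundibulum and its neighbours, had 5 of 9 members tested higher and 0 lower, where 5.03% of all genes were higher and 3.32% lower. All 5 were kallikreins. Klk6 was at 26.1 and 16.7 CPM in the control and 260.3 and 376 CPM in the CerS4epi-/- mice, and no control value came near either of the latter (log2 fold change 3.91, SE 0.23, adjusted p = 9.88e-05). Klk13, a trypsin-like kallikrein of stratified epithelia, went from 5.84 and 3.77 CPM to 29.2 and 35.9 CPM (2.76, SE 0.25, adjusted p = 0.000545).

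Klk10 was higher but unevenly so, with 901 and 562 CPM in the control, 1899 CPM in CerS4epi-/- mouse 1 and 3690 CPM in CerS4epi-/- mouse 2 (log2 fold change 1.99, SE 0.30, adjusted p = 0.00522). Klk7 rose from 2637 and 2001 CPM to 3607 and 4467 CPM (0.86, SE 0.16, adjusted p = 0.0127). Klk11 had 170.5 and 162 CPM in the control and 204 and 216 CPM in the CerS4epi-/- mice (0.40, SE 0.10, adjusted p = 0.0393). This call was lost in 15 of 22 other settings, among them those without control mouse 1, control mouse 2 or CerS4epi-/- mouse 2. Ranges overlapped for the partners, with Cdsn at 2091, 1899, 1908 and 2693 CPM and Spink5 at 1618, 1356, 1387 and 1599 CPM (log2 fold changes 0.27, SE 0.16, and 0.07, SE 0.13). Summed markers of the uHF list, all 10 of them detected, were higher in CerS4epi-/- mice too, at 29320, 26180, 37690 and 45920 CPM. So was the median mitochondrial share, at 7.28%, 6.77%, 9.77% and 9.10%. The part of either in these results was not tested.

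**Figure D2:**
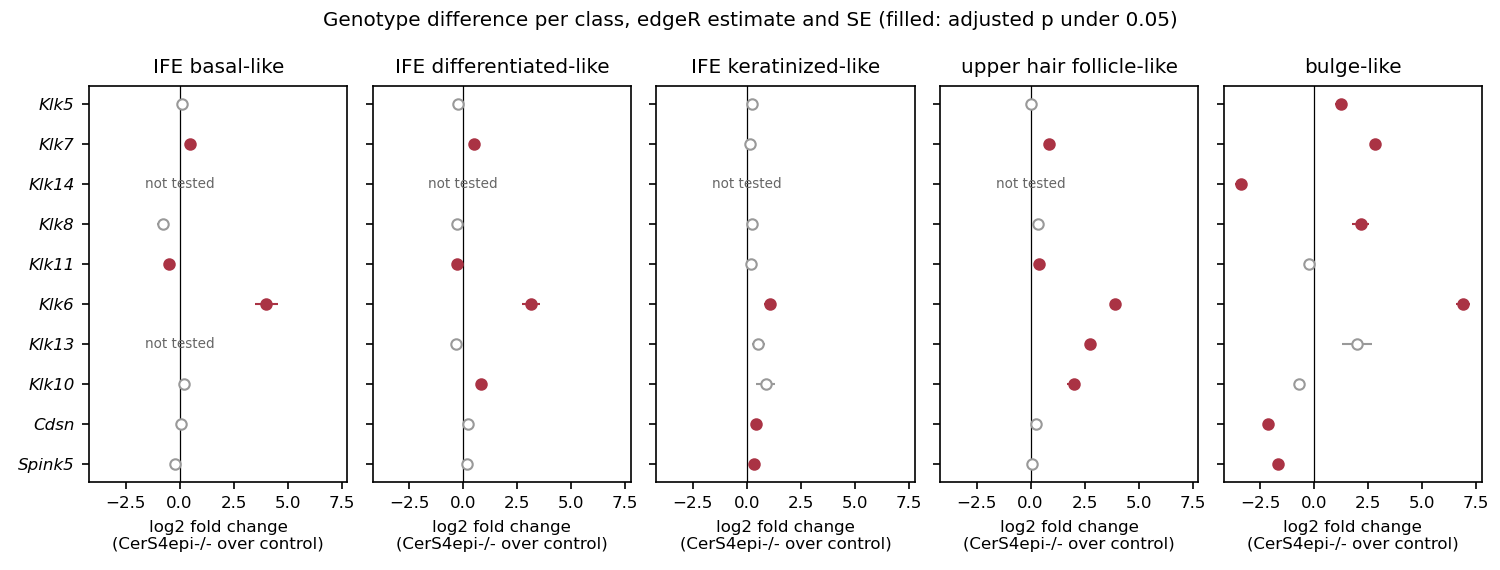
log2 fold change of each gene, CerS4epi-/- against control, in the 5 classes, with bars of 1 SE from edgeR's quasi-likelihood fit of 2 against 2 mice and filled points for an adjusted p under 0.05. Klk6 stands to the right of 0 in every class, from 1.08 in keratinized-like to 6.90 in bulge-like cells, while Cdsn and Spink5 are right of 0 in keratinized-like and left of 0 in bulge-like cells.

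The difference between uHF-like and keratinized-like cells was tested directly, as a genotype by class term with the mouse as a block. Of the 10 members, 4 had a more positive genotype effect in uHF-like cells and 0 a less positive one, where 3.46% and 4.57% of all genes did. These were Klk6 (2.89, SE 0.20, adjusted p = 2.6e-07), Klk13 (2.25, SE 0.47, adjusted p = 0.00462), Klk10 (1.14, SE 0.22, adjusted p = 0.00315) and Klk7 (0.74, SE 0.17, adjusted p = 0.0101), all on the log2 scale. The Klk7 term was lost without CerS4epi-/- mouse 2 (0.50), and those of Klk10 (0.27) and Klk13 (1.43) when cells were classed by marker lists one by one. For Cdsn the term was -0.14 (SE 0.17, adjusted p = 0.706) and for Spink5 -0.25 (SE 0.15, adjusted p = 0.38).

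The uHF-like class comprised 3 clusters, led by Krt79 and Defb6 (Krt79 cluster), by Cst6 and Sprr1a (Cst6 cluster) and by Krt17 and Slurp1 (Slurp1 cluster). The Cst6 cluster made up 12.2% and 8.70% of the class in control and 16.5% and 23.3% in CerS4epi-/- mice. It was the richest of the 3 in Klk6, Klk7 and Klk10 in each of the 4 mice. Within it, 6 of 9 members tested were higher in CerS4epi-/- mice and 0 lower, against 4.66% and 2.33% of all genes. These were Klk5, Klk6, Klk7, Klk10, Klk13 and Spink5.

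Klk6 in the Cst6 cluster went from 139 and 87.8 CPM to 1036 and 1160 CPM (log2 fold change 3.39, SE 0.19, adjusted p = 1.49e-07). Klk7 went from 4956 and 3819 CPM to 8811 and 9895 CPM (1.27, SE 0.15, adjusted p = 0.000121), above the 6197 CPM that was the highest level of the keratinized-like class in a control mouse. Within that class the cluster led by Lce1m had 8671 and 8267 CPM in control mice. Klk10 rose from 6788 and 5532 CPM to 9070 and 12650 CPM (0.99, SE 0.16, adjusted p = 0.0018). Among the uHF-like clusters the 3 genes were thus most abundant in the same one, and each was higher in both CerS4epi-/- mice than in both controls. Klk5 rose as well, from 259 and 217 CPM to 361 and 415 CPM (0.86, SE 0.16, adjusted p = 0.00464). So did Klk13, from 2.39 and 20.9 CPM to 64.7 and 107 CPM (3.39, SE 0.55, adjusted p = 0.00158). Spink5 rose from 2387 and 1688 CPM to 2518 and 2985 CPM (0.60, SE 0.16, adjusted p = 0.0382), a call lost without control mouse 2 (0.37).

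In the Slurp1 cluster 5 of 9 members were higher and 0 lower, where 2.53% and 1.2% of genes were. Klk6 was at 20.4 and 23.3 CPM in control and 174 and 163 CPM in CerS4epi-/- mice (log2 fold change 3.01, SE 0.20, adjusted p = 4.07e-11). Klk13 (2.38), Klk10 (1.09), Klk8 (0.75) and Klk7 (0.46) were called too. Each of these 4 was lost without CerS4epi-/- mouse 1, Klk10 also without control mouse 2 and Klk7 also without CerS4epi-/- mouse 2. In all, Klk10 was lost under 3 of the 5 alternatives run for the cluster and Klk8 under 2.

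The Krt79 cluster, the largest, had changes of both signs. Klk6, Klk7 and Klk10 were higher and Klk5, Cdsn and Spink5 lower, 3 and 3 of 8 members, against 4.53% and 3.79% of all genes. Klk10 rose from 9.94 and 6.53 CPM to 43.2 and 113 CPM (log2 fold change 3.18, SE 0.43, adjusted p = 5.38e-05). Klk6 rose from 2.34 and 0.726 CPM to 16.2 and 25.5 CPM (3.64, SE 0.49, adjusted p = 5.43e-05). Its control values rest on 4 and 1 counts, and DESeq2 gave it no adjusted p. Both genes were far below their level in the Cst6 cluster. Spink5 fell from 500 and 570 CPM to 248 and 238 CPM (-1.11, SE 0.10, adjusted p = 2.77e-07), under every alternative run for the cluster. Cdsn had 199 and 213.5 CPM in control and 65.2 and 145 CPM in CerS4epi-/- mice (-0.98, SE 0.21, adjusted p = 0.00438), which DESeq2 did not call. Klk5 (-0.46) was lost in 3 of 5 alternatives, among them those without control mouse 2 or CerS4epi-/- mouse 2, and so was Klk7 (0.37).

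When the genotype effect was compared between the Cst6 and Krt79 clusters, Cdsn and Spink5 differed, by 1.42 (SE 0.14, adjusted p = 9.69e-10) and 1.80 (SE 0.15, adjusted p = 9.18e-12) on the log2 scale. So did Klk5 (1.42, SE 0.19, adjusted p = 1.46e-06) and Klk7 (0.99, SE 0.11, adjusted p = 8.28e-09). Klk10 had the opposite sign (-2.06, SE 0.28, adjusted p = 1.53e-06). Altogether 4 of 10 members had a more positive and 1 a less positive effect in the Cst6 cluster, against 2.25% and 1.11% of all genes. Of the 4, Cdsn, Spink5 and Klk5 were lower in the Krt79 cluster. For Klk6 the term was -0.11 (SE 0.41, adjusted p = 0.955). Against the Krt79 cluster, the Slurp1 cluster had more positive effects for Spink5 (1.33, SE 0.12), Cdsn (1.25, SE 0.22) and Klk5 (0.87, SE 0.13). They were 3 of 9 members, beside 1.25% of all genes. All 3 were called lower in the Krt79 cluster and not called in the Slurp1 cluster.

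**Figure D3:**
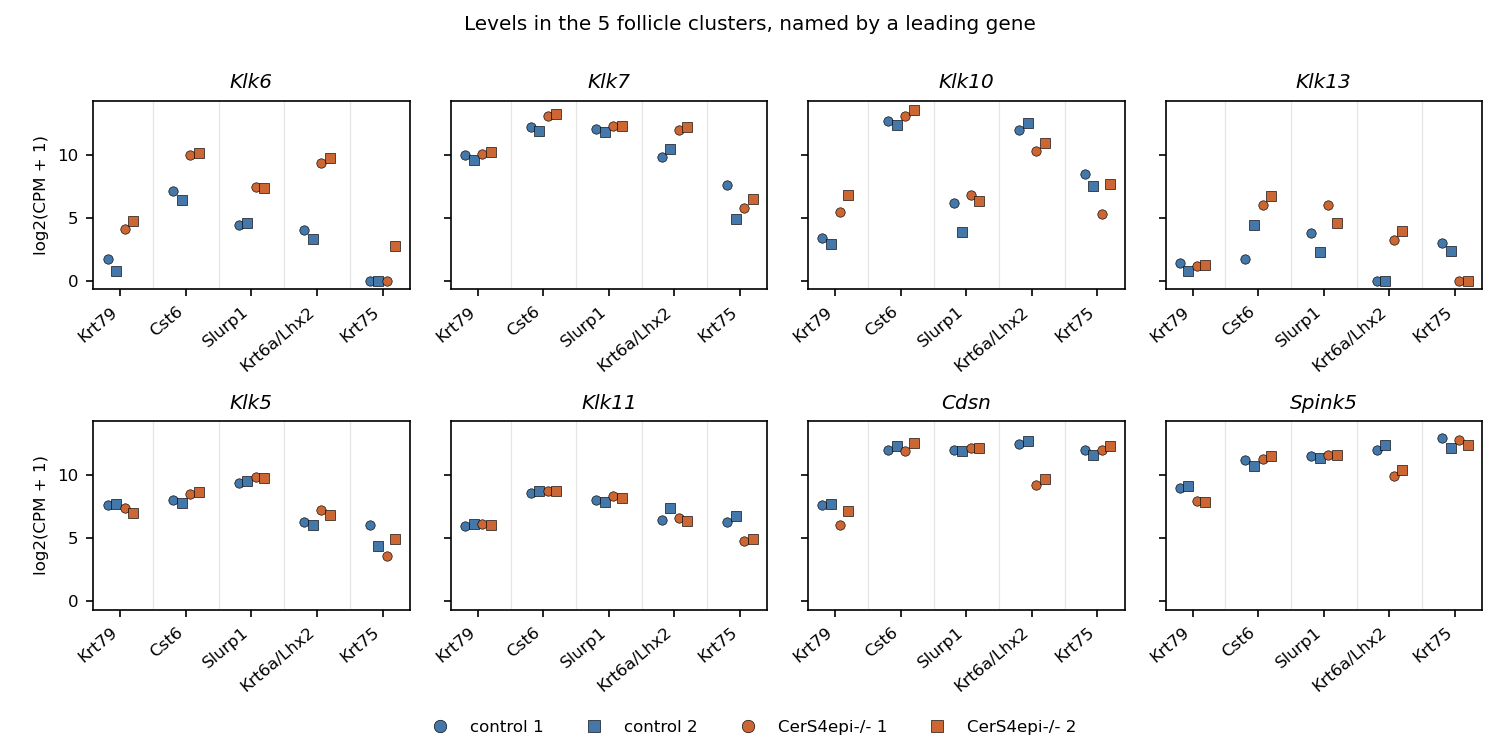
Levels of 8 genes as log2 of CPM plus 1 in the 5 follicular clusters, 1 point per mouse. Of the 3 uHF-like clusters the Cst6 cluster is highest for Klk6, Klk7 and Klk10, and in the Krt6a/Lhx2 cluster the points of the genotypes part in opposite directions, with Klk6 and Klk7 higher and Cdsn, Spink5 and Klk10 lower in CerS4epi-/- mice.

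Bulge-like cells showed the largest differences, in both directions. All 10 members were tested, of which 4 were higher and 3 lower in CerS4epi-/- mice, against 7.49% and 6.38% of all genes. Klk6 went from 8.24 and 4.32 CPM to 623 and 825 CPM (log2 fold change 6.90, SE 0.33, adjusted p = 3.86e-06). Its control values rest on 5 and 2 counts, so the size of this fold is poorly fixed. Klk7 went from 590 and 677 CPM to 3699 and 4354 CPM (2.79, SE 0.19, adjusted p = 1.39e-05). Cdsn fell from 5034 and 4897 CPM to 890 and 1196 CPM (-2.13, SE 0.20, adjusted p = 7.66e-05), and Spink5 from 5892 and 5105 CPM to 1461 and 1712 CPM (-1.67, SE 0.19, adjusted p = 0.000218). Cdsn was thus higher in bulge-like than in uHF-like cells of control mice, and lower in bulge-like than in uHF-like cells of CerS4epi-/- mice. With 3 of 9 other seeds of the clustering the class held the Krt75 cluster alone. Then 0 of 7 members tested passed by edgeR or by DESeq2, with 3 or 4 at an unadjusted p under 0.05. The share of all genes called was not worked out for these fits, so this 0 is not a result about the members. Klk6 was tested under 19 alternatives of this class, where Cdsn was tested under 22. The uHF-like class of CerS4epi-/- mice was larger with these seeds, going from 1690 and 1486 cells to 2043 and 1828 with seed 4. The class as tested above includes the Krt6a/Lhx2 cluster, which these seeds placed outside it.

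Klk8 was at 8.24 and 6.47 CPM in control and 30.6 and 30.8 CPM in CerS4epi-/- mice (log2 fold change 2.15, SE 0.39, adjusted p = 0.00408). Klk5 was at 70.8 and 41.0 CPM and then 138 and 108 CPM (1.22, SE 0.24, adjusted p = 0.00712). Neither kept its sign when cells were classed by marker lists (-0.24 and -1.38), and Klk5 lost its call without control mouse 2. Klk14 fell from 157 and 144.5 CPM to 9.92 and 16.4 CPM (-3.40, SE 0.25, adjusted p = 1.59e-05). Of the 2 bulge-like clusters, the Krt75 cluster was the one rich in Klk14, with 337.5, 258, 76.3 and 185 CPM in the 4 mice. The Krt6a/Lhx2 cluster had 0, 18.3, 4.22 and 1.57 CPM of Klk14. The Krt75 cluster made up 40.6% and 46.1% of the class in control and 8.65% and 8.82% in CerS4epi-/- mice. The part of this make-up in the fall of Klk14 was not tested. Within the Krt75 cluster the Klk14 ranges did not overlap, and the test was not passed (-1.24, SE 0.33, adjusted p = 0.153). Of all Klk14 counts, bulge-like cells held 95.3% in control and 32.4% in CerS4epi-/- mice. The uHF-like cells held 2.94% and 64.8%. Klk14 was at 2.22 CPM in uHF-like cells of CerS4epi-/- mouse 1 and at 18.3 CPM in those of CerS4epi-/- mouse 2.

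Inside the Krt75 cluster 0 of 6 members tested passed by edgeR or by DESeq2, with 3 at an unadjusted p under 0.05, and 0.519% of all genes passed in either direction. It held 71, 59, 36 and 36 cells. Cdsn was at 4064, 3078, 4207 and 5316 CPM there and Spink5 at 7851, 4707, 7046 and 5500 CPM. Ranges overlapped for Spink5 and lay just apart for Cdsn (log2 fold changes -0.03, SE 0.22, and 0.39, SE 0.19).

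In the Krt6a/Lhx2 cluster 4 of 8 members tested were higher and 3 lower, the latter being Cdsn, Spink5 and Klk10 in place of the Cdsn, Spink5 and Klk14 of the class, against 3.91% and 4.41% of all genes. Klk6 had 15.4 and 9.13 CPM in control and 677 and 897 CPM in CerS4epi-/- mice (log2 fold change 6.03, SE 0.33, adjusted p = 4.33e-05). Its control values again rest on 5 and 2 counts. Klk7 had 931 and 1401 CPM and then 4012 and 4729 CPM (2.01, SE 0.22, adjusted p = 0.00068). Klk7 thereby lay within or near its control range in the Cst6 cluster, and Klk6 lay above every control value of the 5 follicular clusters. Klk8 (1.93) and Klk5 (0.98) were called, but each lost its call on leaving out control mouse 1, control mouse 2 or CerS4epi-/- mouse 1, Klk8 also without CerS4epi-/- mouse 2. In all, Klk8 lost it under each of the 5 alternatives run for the cluster, DESeq2 among them, and Klk5 under 4.

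Cdsn in the same cells fell from 5872 and 6926 CPM to 604 and 834 CPM (log2 fold change -3.05, SE 0.21, adjusted p = 6.05e-05). Spink5 fell from 4198 and 5548 CPM to 981 and 1379 CPM (-1.95, SE 0.22, adjusted p = 0.000893). Klk10 fell from 4195 and 6173 CPM to 1318 and 1972 CPM (-1.56, SE 0.25, adjusted p = 0.00498). No control value of any of the 3 lay within the CerS4epi-/- range. Other markers moved in this cluster as well. The summed IFE differentiated list was at 19150, 22730, 7316 and 5854 CPM (7 of 7 genes detected) and the fibroblast list at 2861, 4590, 232 and 946 CPM (5 of 5). The IFE basal list was at 5267, 7145, 11450 and 15070 CPM (9 of 9) and the inner bulge list at 3769, 3868, 5700 and 11030 CPM (4 of 4), both higher in CerS4epi-/- mice, as was the median mitochondrial share, at 7.90%, 8.07%, 10.11% and 11.32%. The outer bulge list was at 3150, 2938, 2142 and 1790 CPM (6 of 6) and the uHF list at 50940, 47830, 45970 and 47320 CPM (10 of 10). The part of these in the results was not tested. Its cells were 104 and 69 in the control and 380 and 372 in the CerS4epi-/- mice, with median depths of 2711 and 2448 counts and 4553 and 4195 counts.

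The genotype effect in the Krt6a/Lhx2 cluster was set against that in the Cst6 cluster. Klk6 (2.57, SE 0.44, adjusted p = 8.49e-05) and Klk7 (0.70, SE 0.21, adjusted p = 0.0482) had the larger effect in the Krt6a/Lhx2 cluster. Cdsn (-3.40, SE 0.19, adjusted p = 9.41e-18), Spink5 (-2.62, SE 0.22, adjusted p = 2.39e-12) and Klk10 (-2.60, SE 0.21, adjusted p = 1.07e-12) had the more negative one. All 3 fell in the Krt6a/Lhx2 cluster, and Spink5 and Klk10 rose in the Cst6 cluster. That made 2 more positive and 3 more negative of 10 members, against 1.41% and 3.02% of all genes. For Klk5 the term was 0.06 (SE 0.31, adjusted p = 0.97).

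As shares of cells the same picture was seen after every cell had been thinned to 1200 counts. Of cells in the Cst6 cluster, 10.7% and 11.1% had a Klk6 count in control and 40.9% and 48.3% in CerS4epi-/- mice, compared with 19.1%, 18.1%, 57.7% and 66.2% before thinning. Of cells in the Krt6a/Lhx2 cluster, 0.962% and 1.45% (exact 95% intervals 0.0243% to 5.24% and 0.0367% to 7.81%) became 21.8% and 23.1% (17.8% to 26.3% and 18.9% to 27.7%), compared with 4.81%, 2.90%, 34.5% and 37.1% before thinning. The CerS4epi-/- intervals of the Krt6a/Lhx2 cluster did not meet the control intervals. In T cell-like cells its thinned share was 0 of 107, 68, 139 and 148 cells, which allows up to 2.80%, 4.41%, 2.16% and 2.03%. These intervals cover counting error only.

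Cdsn was found in 40.4% and 46.4% of thinned Krt6a/Lhx2 cells of control mice and in 13.7% and 16.9% of those of CerS4epi-/- mice (48.1%, 56.5%, 28.4% and 28.8% before thinning), with a T cell-like background of 6.54%, 11.8%, 8.63% and 8.11%. Klk7 was found in 39.4% and 31.9% against 50.5% and 53.5% (47.1%, 39.1%, 61.6% and 62.6% before thinning), with a background of 9.35%, 5.88%, 3.6% and 8.78%. The fold in the share of Klk7-positive cells was thus smaller than that in its level. In the Cst6 cluster Klk7 was near saturation, in 87.0% and 88.9% of thinned control cells and 97.5% and 98.6% of thinned CerS4epi-/- cells (95.4%, 90.3%, 99.6% and 99.7% before thinning).

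**Figure D4:**
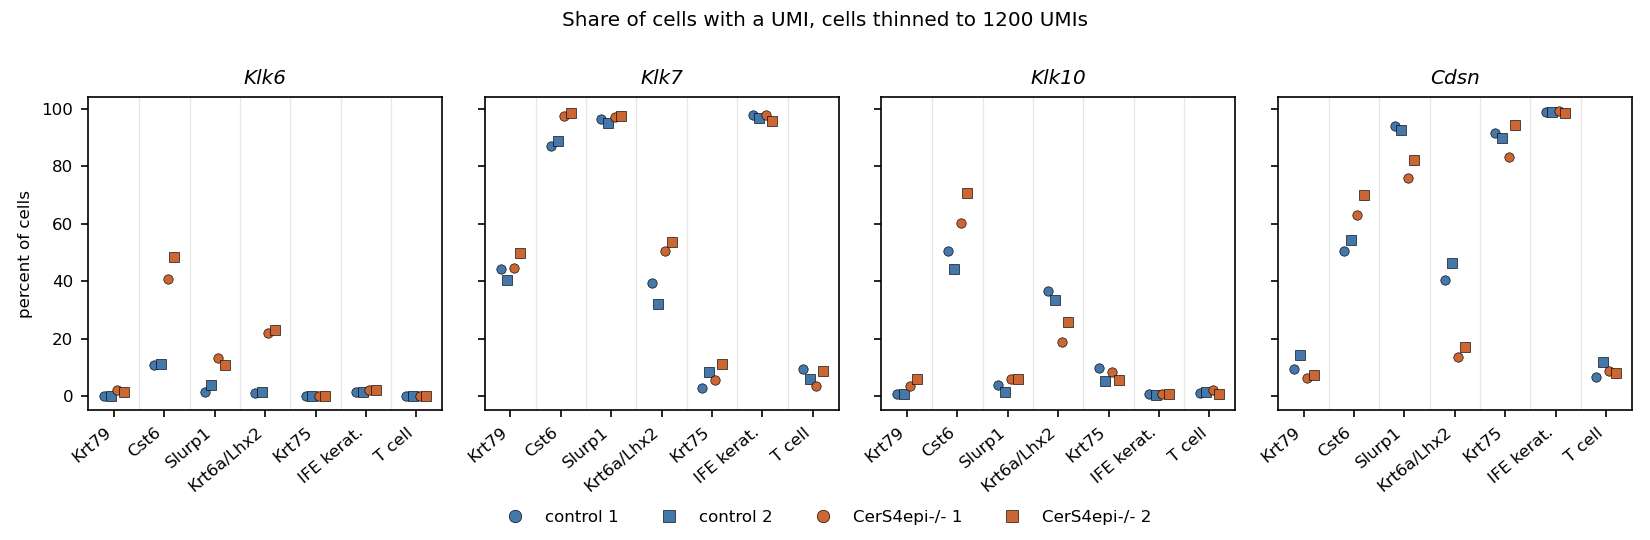
Percent of cells with at least 1 count of Klk6, Klk7, Klk10 or Cdsn after thinning each cell to 1200 counts, by mouse, in the 5 follicular clusters, keratinized-like cells and, as background, T cell-like cells. Klk6 separates the genotypes in the Cst6 cluster (10.7% and 11.1% against 40.9% and 48.3%) and the Krt6a/Lhx2 cluster, and Cdsn falls in the latter towards the level of T cell-like cells.

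Summed over all kept cells, 3 of 10 members were higher in CerS4epi-/- mice and 0 lower, where 8.18% and 6.07% of all genes were. Klk6 had 5.50 and 3.81 CPM in control and 73.1 and 116 CPM in CerS4epi-/- mice (log2 fold change 4.34, SE 0.26, adjusted p = 0.00205). Klk10 had 124 and 75.8 CPM and then 343 and 695 CPM (2.37, SE 0.36, adjusted p = 0.0113). Klk13 had 4.06 and 4.81 CPM and then 9.32 and 8.94 CPM (1.04, SE 0.13, adjusted p = 0.00762). These sums also reflect that uHF-like and bulge-like cells were a larger part of the CerS4epi-/- cells, with 1073 and 828 uHF-like cells in control and 1690 and 1486 in CerS4epi-/- mice. Of the Klk6 counts, keratinized-like cells held 61.0% in control but 4.60% in CerS4epi-/- mice, where bulge-like cells held 41.7% and uHF-like cells 50.1%. Klk7 counts moved in the same way, with the uHF-like and bulge-like shares going from 8.92% and 0.448% to 27.3% and 9.91%.

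Around the 10 genes, a list of 31 further genes of desquamation was examined: upstream proteases, other kallikreins, inhibitors, other proteases of the upper layers, and substrates with their receptor. In keratinized-like cells 9 of 21 tested were higher and 4 lower, where 10.4% and 7.05% of all genes were, with a median log2 fold change of 0.25 beside -0.018 over all genes tested. Prss8, the membrane-anchored protease prostasin, went from 90.4 and 90.5 CPM to 145 and 146 CPM (log2 fold change 0.80, adjusted p = 0.000313). Casp14, a caspase of cornifying cells, went from 705 and 715 CPM to 1386 and 1177 CPM (0.97, adjusted p = 0.000362). Also higher were Klk9 (0.57), the membrane protease Tmprss13 (0.57) and Asprv1 (0.44), which cleaves profilaggrin, while Tmprss4 fell by 0.65. Of the differentiated-like class, 0 of 20 passed by edgeR or by DESeq2, with 5 at an unadjusted p under 0.05 and a median of -0.03.

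In uHF-like cells 8 of 23 were higher and 1 lower, where 5.03% and 3.32% of all genes were, with a median of 0.35 beside 0.0032 over all genes. In bulge-like cells 11 of 21 were higher and 1 lower, where 7.49% and 6.38% of all genes were, with a median of 0.88 beside 0.013. Ctsl, the lysosomal protease cathepsin L, rose in both, from 111 and 63.6 CPM to 266 and 309 CPM in uHF-like cells (log2 fold change 1.76, adjusted p = 0.00183), and from 51.1 and 53.9 CPM to 579 and 872 CPM in bulge-like cells (3.91, adjusted p = 1.33e-05). Slpi, a secreted inhibitor of serine proteases, rose from 1.23 and 2.51 CPM to 18.5 and 19.8 CPM in uHF-like cells (3.47, adjusted p = 0.000578). In bulge-like cells it had 0 counts in control mice and 33.7 and 38.0 CPM in CerS4epi-/- mice, at least 12.7-fold higher taking 3 counts over both control mice as the floor. Casp14 (0.79 and 1.01), the lysosomal protease Ctsd (0.97 and 1.05) and Asprv1 (1.04 and 0.80) were higher in both classes. Tmprss11e (1.92) was higher in uHF-like cells and Wfdc5 (2.07) in bulge-like cells.

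Basal-like cells had 0 of 20 higher and 3 lower, where 4.25% and 3.12% of all genes were, with a median of -0.04 beside -0.0041. The 3 were Wfdc21 (-0.60), Ctsl (-0.48) and the desmosomal cadherin Dsg1a (-0.49). Ctsl therefore fell in basal-like cells, where Klk11 fell too, and rose in uHF-like and bulge-like cells. For comparison, the members tested had medians of 0.09, 0.17, 0.33, 0.40 and 0.49 from basal-like over differentiated-like, keratinized-like and uHF-like to bulge-like cells.

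Over 32 sums, 8 classes in each of 4 mice, the genes whose log2(CPM + 1) ran most alike were, for Cdsn, Gdpd1, Xkrx and Sbsn (Pearson r 0.916, 0.913 and 0.912) and, for Klk7, Teddm3, Dlx3 and Calml3 (0.896, 0.888 and 0.887). For Spink5 they were Bicdl2, Nectin4 and Atp6v1c2 (0.951, 0.936 and 0.92), and for Klk5, Csnk2b, Bicdl2 and Prdx5 (0.937, 0.934 and 0.925). Bicdl2 was common to Spink5 and Klk5, and no member was among the 3 nearest genes of another. Teddm3 and Atp6v1c2 were among the uHF markers used to name classes, and Sbsn among the IFE differentiated markers. The sums share mice and vary in depth between classes, so these coefficients describe likeness of pattern in these 4 mice.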

How the data were processed

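The dissociated epidermis of 4 mice was marked with sample tags (a multiplexing kit) and captured on the BD Rhapsody system, the authors' scripts assigned cells to mice by tag, and groups were taken from the labels (2 control, 2 CerS4epi-/-). The authors trimmed reads with fastp 0.23.2, aligned them with STAR 2.7.10a to GRCm39 and deposited, without a filter on cells, expected counts per gene and barcode, in which reads that map to several genes are divided by estimation. All member values in kept cells were whole, which does not settle whether any of them rest on such division.

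Cells were barcodes of 1200 or more counts with a mitochondrial share of up to 20%. Size factors came from scran 1.30.0, and clusters from 3000 variable genes, 100 components, a Harmony correction written for this work, 30 neighbours and Leiden resolution 0.8 (scanpy 1.11.5). Doublets were not called. Classes were named from marker lists, and names such as Krt75 cluster were given after the clusters were seen. Estimated counts as deposited were summed per class and mouse, rounded, and tested with edgeR 4.0.16 (R 4.3.3) by its quasi-likelihood test with TMM factors, filterByExpr and Benjamini-Hochberg adjustment over all genes, at a threshold of 0.05. SE is the log2 fold change divided by the root of F. An exact permutation test of 2 against 2 mice could not go below 0.333. The study divided pooled cells into pseudoreplicates, whereas mice are the replicates here. The edgeR test between genotypes in the classes and over all kept cells was tried on simulated counts first. The tests of single clusters, the terms with the mouse as a block and DESeq2 were not tried in this way. The alternatives were DESeq2 1.42.0, other size factors, no filter on low counts, a replicate block, each mouse left out, stricter cell filters, other classes and, chosen after seeing the data, 9 other Leiden seeds, single clusters and comparisons between clusters. Named from the desquamation list were at most 6 genes per class with the smallest adjusted p. The members and lists were chosen with earlier results of these data known. Same-numbered mice did not deviate together.

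Positions come from a GRCm39 annotation of a later release than the study's, promoters from RefSeq. The deposited tables held no comparisons by the authors.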

Additional observations from a re-analysis of the deposited data

Results flagged for a closer look

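Between uHF-like and keratinized-like cells the genotype effect differed by test for 4 members, the term being 2.89 for Klk6, 2.25 for Klk13, 1.14 for Klk10 and 0.74 for Klk7 on the log2 scale. Between the Cst6 and Krt79 clusters it differed for Spink5 (1.80), Klk5 (1.42), Cdsn (1.42), Klk7 (0.99) and Klk10 (-2.06), and between the Slurp1 and Krt79 clusters for Spink5 (1.33), Cdsn (1.25) and Klk5 (0.87). Between the Krt6a/Lhx2 and Cst6 clusters it differed for Klk6 (2.57), Klk7 (0.70), Klk10 (-2.60), Spink5 (-2.62) and Cdsn (-3.40). A positive term is a higher genotype effect in the first-named cells, and each passed an adjusted p of 0.05 by edgeR's quasi-likelihood test over all genes with the mouse as a block. The comparisons between clusters were chosen after the data had been seen.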

How the results depend on the processing

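There were 29 calls on members in the classes, all cells and the comparison of classes. Of these, 11 passed under every alternative in which the gene was tested, and 26 kept their direction under all of those. Klk6 and Klk8 in bulge-like cells were tested under 19 alternatives and Klk6 in basal-like cells under 21. The other calls in the 5 classes were tested under 22. With 2 mice per genotype, counts of calls moved in every class when 1 mouse was left out. The share of all genes called was not worked out for these fits or for the other alternatives. Moves in the counts given here are therefore not results about the members. Replicate numbers did not pair the mice, the correlation of deviations between same-numbered mice being -0.061 to 0.087 over the classes, and a replicate block gave counts of 4, 5, 3, 5 and 8 from basal-like to bulge-like cells and 3 over all kept cells.

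The 3 calls of basal-like cells became 0 (4 at an unadjusted p under 0.05, 0 by DESeq2) with at most 10% mitochondrial counts and 1 with classes from marker lists. The 4 of differentiated-like cells became 7 without a filter on low counts, 1 at Leiden resolution 1.2, 1 without Harmony, 2 with seed 6, 2 with seed 7 and 0 with classes from marker lists (1 at an unadjusted p under 0.05, 0 by DESeq2). The 3 of keratinized-like cells became 7 without a filter, and the 3 over all kept cells 5 with DESeq2. The 7 of bulge-like cells became 0 with seeds 4, 7 and 8 (3 or 4 at an unadjusted p under 0.05, 0 by DESeq2), where the class held the Krt75 cluster alone. There Cdsn reversed to 0.40 with each of the 3 seeds, and Klk5 to -0.0415 with seeds 4 and 8 and to -0.0476 with seed 7. With classes from marker lists Klk5 reversed to -1.38 and Klk8 to -0.24 in bulge-like cells. The cause of the other moves was not tested. After thinning, shares of cells with a count did not overlap between the genotypes in 27 of 50 pairs of member and class. CerS4epi-/- mice were higher in 14 of these pairs and lower in 13. Before thinning 29 pairs did not overlap, 18 higher and 11 lower. The same share was not worked out over all genes, so these counts are not a result about the members. Depth limited Klk13 and Klk14, with 1130 and 346 counts in all kept cells.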

Other observations

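Klk8 was higher in T cell-like than in basal-like cells of each of the 4 mice. In T cell-like cells it was at 74.3 and 86.2 CPM in control and 81.9 and 58.1 CPM in CerS4epi-/- mice against the 13.7, 9.31, 8.01 and 4.75 CPM of basal-like cells. These values rest on 15, 13, 24 and 20 counts. Counts of Klk8 per count of Klk5 were 3.75, 0.591, 4.8 and 4.0 in T cell-like cells and 0.272, 0.262, 0.294 and 0.246 in keratinized-like cells of the same mice. In Langerhans cell-like cells, the other immune class, Klk8 had 5, 8, 0 and 0 counts and Klk5 10, 18, 2 and 5 counts.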
